A study of Mus musculus with 4 samples.

Results

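The 29 genes described here make or regulate sterols and fatty acids, and they were taken by symbol from the 27998 rows of the gene table, where each symbol was found. They comprise 17 enzymes of the route from acetyl units to cholesterol, 7 enzymes of fatty acid synthesis, and 5 further genes of sterol control and supply (Srebf1, Srebf2, Insig1, Acat2 and Stard4). The data were single-cell RNA profiles of sorted cells from the back skin of CD1 mice that were 7 to 8 weeks old. There were 4 libraries: untreated control skin, control skin treated with imiquimod, untreated skin labelled Ovol1 null, and treated skin labelled Ovol1 null. Treated mice received 1 dose of 62.5 mg of a 5% imiquimod cream, an agonist of innate immune receptors used to provoke psoriasis-like inflammation, and Ovol1 encodes a zinc-finger repressor of the epidermis. The series set out to compare control and null skin with and without imiquimod. The sort gates, the number of mice behind a library and the nature of the null allele are not given in the sources used here.

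Each group was 1 library, so no difference between groups could be tested, and animal, library and condition cannot be told apart. Values are therefore given with exact 95% intervals that cover counting error only. The libraries labelled Ovol1 null were not lower in Ovol1: keratinocytes held 0.303 Ovol1 UMIs per 10000 in untreated control, 0.365 in treated control, 0.429 in untreated labelled null and 0.989 in treated labelled null skin. The counts come from the 3′ ends of transcripts and the deleted part is not given here, so this level does not check the label, and the wording "labelled null" is kept throughout. Between 5219 and 6060 cells a library were kept, with median depths of 4760 to 8395.5 UMIs (unique molecular identifiers, one per captured RNA molecule), and 37 to 47 cell barcodes were shared between any pair of libraries. The 1607 keratinocytes of the treated labelled null library stood apart, with a median of 13823 UMIs against 5054 to 5659 in the others.

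Cholesterol is built from acetyl units through mevalonate, isoprenoids, squalene and lanosterol, and the later enzymes trim lanosterol to cholesterol. The sterol-regulated transcription factors SREBP-1 and SREBP-2, encoded by Srebf1 and Srebf2, stand above both pathways: when membrane sterol is low they are released from the endoplasmic reticulum, where INSIG proteins otherwise hold them, and they switch on the synthesis enzymes. In skin, keratinocytes make cholesterol and fatty acids for the water barrier of the cornified layer, and sebocytes make the lipids of sebum.

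Stretches of promoter were examined because the sterol enzymes are textbook targets of SREBP-2, which binds beside NF-Y at CCAAT boxes and Sp1 at GGGCGG boxes. RefSeq promoters of build GRCm38.p6, spanning 300 bases of which 250 lie before the start, were matched for 23 of the 29 members. The sterol regulatory element TCACNCCAC was searched on both strands and was found in 1 member, Hmgcs1, which encodes the synthase that commits acetyl units to mevalonate, and in 1.44% of 27025 genes with a promoter. A CCAAT box on either strand was present in 20 of 23 members (87%), including 14 of 14 sterol enzymes, against 41.1% of all genes. A GGGCGG box on either strand was present in 19 of 23 members (82.6%), against 38.2% of all genes. In Hmgcs1 the sterol element lies 137 bases and the CCAAT box shown 176 bases before the start, and they do not overlap. In Fasn the CCAAT box reads on both strands, overlapping itself. A match is a description and not a binding site, and no match says only that the letters were not in the window. The stretches below run 5′ to 3′ on the strand of the gene. In the first, capitals mark the sterol element and an inverted CCAAT box (ATTGG); in the others, capitals mark CCAAT or ATTGG. They are shown for Hmgcs1, for 5 enzymes with high ratios in the treated labelled null library (Mvd, Idi1, Lss, Cyp51 and Msmo1), for 2 whose pattern departed from the rest (Ebp and Sc5d), and for the fatty acid synthase gene Fasn.
Hmgcs1, chr13:119690164-119690272, plus strand: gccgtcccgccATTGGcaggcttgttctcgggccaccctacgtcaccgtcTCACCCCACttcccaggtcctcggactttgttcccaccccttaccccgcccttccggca
Mvd, chr8:122443423-122443479, minus strand: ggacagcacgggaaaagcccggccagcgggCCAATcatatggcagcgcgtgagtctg
Idi1, chr13:8885562-8885605, plus strand: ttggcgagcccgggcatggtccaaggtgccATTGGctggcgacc
Lss, chr10:76531513-76531577, plus strand: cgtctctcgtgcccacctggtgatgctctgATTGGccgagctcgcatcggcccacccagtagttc
Cyp51, chr5:4104698-4104756, minus strand: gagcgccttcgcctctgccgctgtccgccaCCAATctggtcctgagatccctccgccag
Msmo1, chr8:64733599-64733663, minus strand: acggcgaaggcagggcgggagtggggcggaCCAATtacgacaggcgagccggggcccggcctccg
Ebp, chrX:8193533-8193597, minus strand: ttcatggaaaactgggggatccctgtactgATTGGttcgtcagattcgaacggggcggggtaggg
Sc5d, chr9:42264301-42264354, minus strand: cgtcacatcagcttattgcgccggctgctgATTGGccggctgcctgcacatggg
Fasn, chr11:120824572-120824636, minus strand: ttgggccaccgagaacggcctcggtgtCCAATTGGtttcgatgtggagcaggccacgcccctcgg

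Cells were clustered without the 29 members and the further lipid genes counted below, and were named from marker genes. A class name such as keratinocyte thus means cells that resemble that type by its markers. The sebocyte markers include lipid genes (Awat2, Cidea, Plin5, Far2, Soat1, Dgat2 and Elovl3). A high level of lipid synthesis genes in sebocytes is therefore not independent of how that class was named. Among sebocytes, keratinocytes, fibroblasts and macrophages, with all keratinocytes pooled, sebocytes carried the highest summed level of both pathways. For the 17 sterol enzymes, sebocytes held 18.2, 26.7, 21.4 and 21.7 UMIs per 10000, in the order untreated control, treated control, untreated labelled null and treated labelled null, which is the order of every list of 4 values below. Keratinocytes held 5.30, 5.13, 4.34 and 11.9, fibroblasts 2.51, 2.12, 2.15 and 5.01, and macrophages 3.06, 2.87, 3.56 and 4.53. The order of classes was sebocytes, keratinocytes, macrophages, fibroblasts in the first 3 libraries, while in treated labelled null skin fibroblasts lay above macrophages, whose interval of 3.97 to 5.16 includes the fibroblast level. The 110 or fewer sebocytes per library (83, 22, 84 and 110) limit the precision, and the treated control value rests on 22 cells and enters no comparison between libraries.

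**Figure D1:**
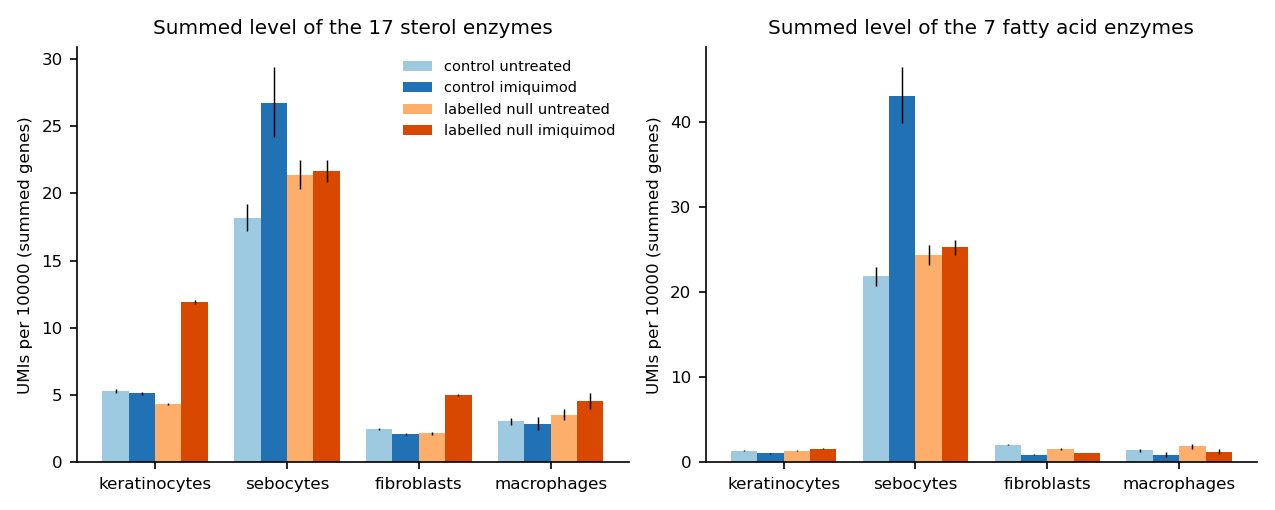
Summed UMIs per 10000 UMIs of the class for the 17 sterol enzymes and the 7 fatty acid enzymes, by cell class and library; bars start at 0 and error bars are exact Poisson 95% intervals for counting error. Sebocytes are the tallest class in both panels in every library, and keratinocytes and fibroblasts of treated labelled null skin stand above their own class in the other 3 libraries for the sterol enzymes.

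As sums, the fatty acid enzymes separated sebocytes from keratinocytes more widely than the sterol enzymes did. Scd1 and Elovl6 made up most of the fatty acid sum in sebocytes, and gene by gene the ratios overlapped. In untreated control skin they were 44.6 for Scd1, 19.9 for Elovl6, 14.6 for Acss2 and 0.791 to 5.48 for the other fatty acid enzymes. Those of the sterol enzymes ran from 0.146 to 19.6. The fatty acid sum was 21.8, 43.1, 24.3 and 25.3 UMIs per 10000 in sebocytes and 1.40, 1.06, 1.36 and 1.59 in keratinocytes, a ratio of 15.7, 40.6, 18 and 15.9, against ratios of 3.42, 5.21, 4.93 and 1.82 for the sterol sum. Sebocytes were above keratinocytes in 4 of 4 libraries for both sums, and the smallest 2-sided p that an exact sign-flip test over 4 libraries can give is 0.125. Of the 29 members, 23 were higher in sebocytes than in keratinocytes in all 4 libraries. They were 14 of the 17 sterol enzymes, 6 of the 7 fatty acid enzymes, and Srebf1, Insig1 and Acat2. Another 3 (Sc5d, Dhcr7 and Stard4) had a lower value in all 4. The share over all genes is not given here, so these counts are not read as a trait of the members. Among the 23, the ratio interval included 1 for Ebp in every library, Sqle in treated labelled null skin and Hsd17b7 in untreated control skin. These counts compare the values alone: in treated control sebocytes Sc5d and Stard4 were at 0, with ratio intervals that reach 3.82 and 3.44, the Dhcr7 interval there reached 1.09, and the Stard4 interval also included 1 in both untreated libraries.

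Scd1, the desaturase that makes oleate and palmitoleate, was the most abundant member in sebocytes, at 14.2, 28.4, 16.4 and 13.1 UMIs per 10000, and stood at 0.318, 0.336, 0.371 and 0.208 in keratinocytes. The sebocyte level was 44.6, 84.7, 44.2 and 62.7 times that of keratinocytes. All 4 sebocyte values lay far above all 4 keratinocyte values. With each cell thinned to 1000 UMIs, 37.3, 40.9, 38.1 and 24.5% of sebocytes and 3.03, 3.45, 3.39 and 2.24% of keratinocytes had an Scd1 UMI, beside 0, 5.71, 1.76 and 1.16% of T or NK cells, a class taken here to lack the gene. Unthinned, the shares were 77.1, 68.2, 81.0 and 63.6% of sebocytes, 14.3, 16.2, 17.6 and 22.9% of keratinocytes, and 0.347, 10.0, 4.71 and 3.47% of T or NK cells, whose median depths were 2639, 2287, 2325.5 and 3817 UMIs. At 1000 UMIs per cell the keratinocyte share in treated control skin was below that of the 70 T or NK cells. It could not be told from background there by this measure, and in the other libraries it was above the T or NK share. In treated control skin Scd1 was 2.21-fold (1.87 to 2.63) higher in suprabasal than in basal keratinocytes.

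Elovl6, which lengthens palmitate to stearate, held 3.82, 9.08, 3.60 and 8.02 UMIs per 10000 in sebocytes and 0.192, 0.123, 0.20 and 0.216 in keratinocytes. Fasn, the multienzyme that builds palmitate, held 1.14, 2.88, 1.42 and 1.49 in sebocytes against 0.208, 0.147, 0.193 and 0.252 in keratinocytes. Acly, which supplies cytosolic acetyl-CoA from citrate, held 1.67, 1.41, 1.88 and 1.81 against 0.426, 0.330, 0.383 and 0.556. Each of these 3 genes had its sebocyte range above its keratinocyte range. Acss2, which makes acetyl-CoA from acetate, held 0.472, 0.959, 0.463 and 0.394 in sebocytes and at most 0.0562 in keratinocytes. Acaca, the carboxylase that makes malonyl-CoA, was the exception, with 0.0834, 0.0639, 0.145 and 0.254 in sebocytes and 0.105, 0.0786, 0.114 and 0.129 in keratinocytes, ranges that overlapped.

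The sterol enzymes of sebocytes differed from those of keratinocytes by unequal amounts. Msmo1, the C4 sterol oxidase, held 1.71, 6.77, 3.01 and 3.27 UMIs per 10000 in sebocytes and 0.282, 0.218, 0.251 and 1.08 in keratinocytes. Idi1, the isopentenyl diphosphate isomerase, held 2.08, 2.62, 3.14 and 2.1 in sebocytes and 0.274, 0.139, 0.202 and 0.936 in keratinocytes. Mvd, the mevalonate diphosphate decarboxylase, held 0.889, 0.703, 1.08 and 0.903 against 0.0453, 0.0769, 0.0499 and 0.255. For these 3 genes every sebocyte value lay above every keratinocyte value. Sc5d, the lathosterol oxidase, had 1, 0, 1 and 1 UMIs in all sebocytes of the 4 libraries, or 0.0139, 0, 0.0145 and 0.00821 per 10000, where 3 UMIs, the limit that a count of 0 allows, would be 0.192 in treated control sebocytes. In keratinocytes Sc5d stood at 0.0952, 0.0627, 0.0883 and 0.152, so the sebocyte level was 0.146 and 0.164 times that of keratinocytes in the untreated libraries. Dhcr7, which reduces 7-dehydrocholesterol to cholesterol, held 0.0556, 0.0639, 0.0723 and 0.197 in sebocytes and 0.257, 0.327, 0.245 and 0.532 in keratinocytes, ranges that did not overlap. Mvk, mevalonate kinase, held 0.347, 0.383, 0.492 and 0.419 against 0.425, 0.446, 0.373 and 0.749, and the interval of its ratio included 1 except in treated labelled null skin, where the ratio was 0.559 (0.414 to 0.738).

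**Figure D2:**
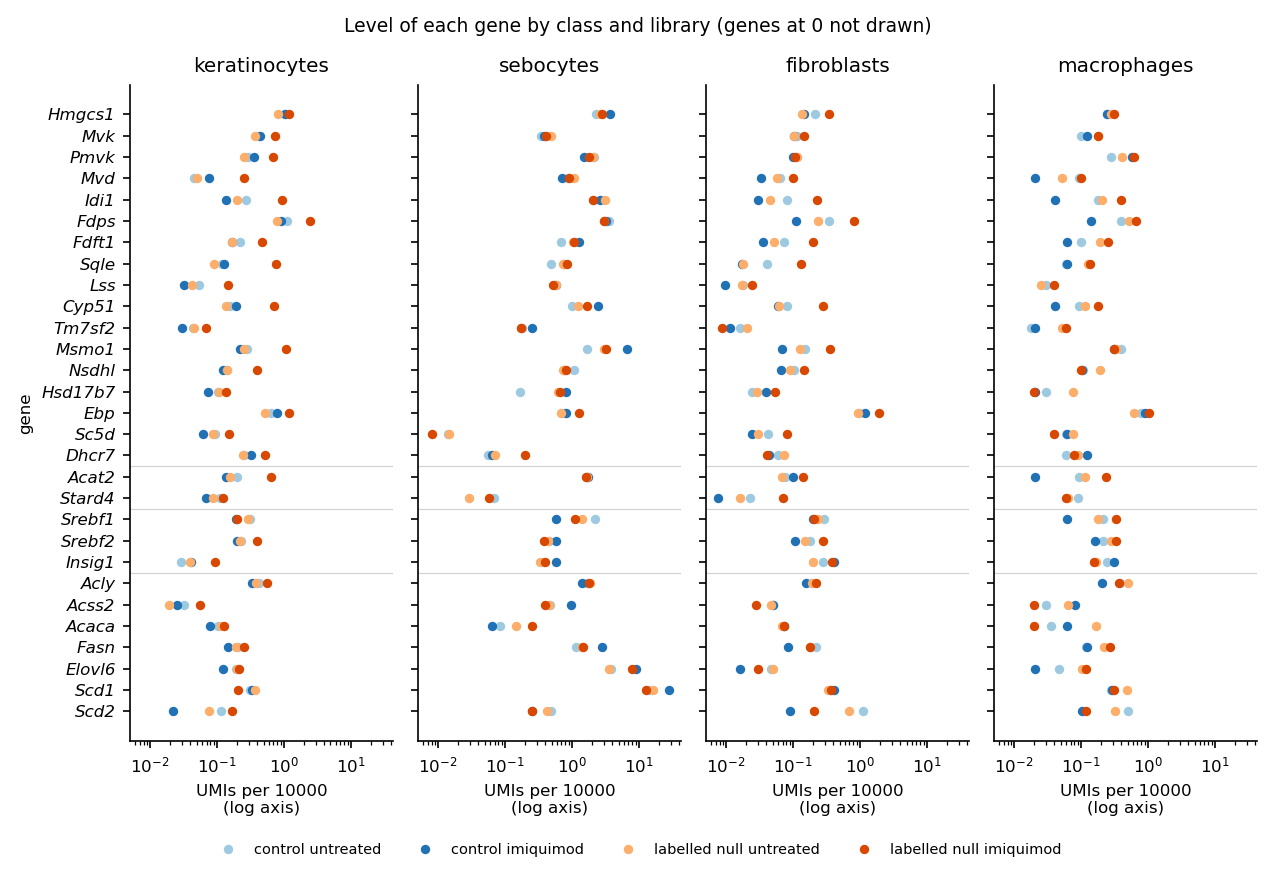
Level of each of the 29 members (vertical axis) in UMIs per 10000 (log axis), 1 panel per cell class and 1 colour per library; genes at 0 are not drawn. Scd1 and Elovl6 lead in sebocytes, where Sc5d is lowest with 1 UMI or none in each library, and Ebp leads in fibroblasts except in untreated control, where Scd2 is higher.

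The remaining sterol enzymes of sebocytes were as follows. Hmgcs1 held 2.32, 3.71, 2.67 and 2.87 UMIs per 10000, Pmvk (phosphomevalonate kinase) 2.18, 1.53, 2.05 and 1.81, and Fdps (farnesyl diphosphate synthase) 3.58, 3.20, 3.04 and 3.01. Fdft1 (squalene synthase) held 0.695, 1.28, 1.03 and 1.08, Sqle (squalene epoxidase) 0.486, 0.767, 0.752 and 0.862, and Lss (lanosterol synthase) 0.556, 0.575, 0.578 and 0.517. Cyp51 (lanosterol 14-demethylase) held 1.0, 2.43, 1.23 and 1.68, Nsdhl (a C4 decarboxylase) 1.10, 0.767, 0.752 and 0.812, and Hsd17b7 (a 3-keto sterol reductase) 0.167, 0.831, 0.622 and 0.665. All 9 had higher values than in keratinocytes of the same library. The ratio intervals of Sqle in treated labelled null skin and Hsd17b7 in untreated control skin included 1. Ebp, the sterol isomerase, held 0.792, 0.831, 0.694 and 1.27, at ratios to keratinocytes of 1.23, 1.04, 1.33 and 1.05, whose intervals all include 1. Tm7sf2, a C14 sterol reductase, held 0.172 to 0.256 in sebocytes and 0.030 to 0.0693 in keratinocytes.

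Of the genes of sterol control and supply, Srebf1 held 2.24, 0.575, 1.42 and 1.12 UMIs per 10000 in sebocytes and 0.312, 0.190, 0.288 and 0.197 in keratinocytes. Acat2, a cytosolic thiolase that condenses acetyl-CoA, held 1.64, 1.73, 1.68 and 1.66 in sebocytes and 0.202, 0.138, 0.156 and 0.637 in keratinocytes. Insig1 held 0.389, 0.575, 0.333 and 0.402 in sebocytes and at most 0.0933 in keratinocytes. These 3 were higher in sebocytes in every library. Srebf2 held 0.458, 0.575, 0.434 and 0.386 in sebocytes and 0.230, 0.199, 0.222 and 0.396 in keratinocytes, higher in 3 of 4 libraries. Stard4, a cytosolic sterol carrier, stayed at or under 0.124 in both classes and was listed at 0 in treated control sebocytes.

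Within keratinocytes, both sums were higher in suprabasal cells than in basal cells in all 4 libraries. The sterol sum was 3.77, 3.62, 3.14 and 10.8 UMIs per 10000 in basal cells and 7.99, 7.52, 5.94 and 24.0 in suprabasal cells, ratios of 2.12, 2.08, 1.89 and 2.23. For the fatty acid sum the ratios were 1.94, 2.16, 2.0 and 2.06. The ratio thus stayed close to the same size in libraries whose levels differed. In treated labelled null skin the suprabasal sterol sum, 24.0 (23.3 to 24.6), lay above the 21.7 (20.8 to 22.5) of sebocytes. In the other libraries the suprabasal sterol sum lay below that of sebocytes. Of the 29 members, 24 were higher in suprabasal cells in 4 of 4 libraries, 16 of the 17 sterol enzymes among them, and none was lower in all 4. The share over all genes is not given here, so these counts are not read as a trait of the members. They compare the values alone: the Ebp interval included 1 in the first 3 libraries. Those of Lss, Srebf2, Acat2 and Acss2 included 1 in at least 1 library. Sqle had the widest ratios in 3 libraries, at 7.02, 8.17, 6.95 and 3.45, and Ebp the narrowest of the sterol enzymes that were higher in all 4, at 1.09, 1.09, 1.12 and 1.25. The 5 members not higher in all 4 libraries were Hmgcs1, Srebf1, Insig1, Acaca and Scd2, and these 5 were named after their values were seen. The upper hair follicle cells lay between, at 4.63, 5.08 and 4.42 for the sterol sum in the 3 libraries with at least 50 such cells. Some basal and suprabasal clusters had markers of other keratinocyte types among their leading genes, so libraries are compared here over all keratinocytes or cluster by cluster. Median depth was higher in suprabasal than in basal cells in the first 3 libraries (6690, 7891 and 7155 against 4504, 4907 and 5114 UMIs) and lower in the treated labelled null library (11673 against 14042).

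In control skin, the keratinocyte sterol sum under imiquimod was 0.967 times the untreated level (95% interval 0.935 to 0.999), a log2 ratio of -0.05 that turned to 0.15 under TMM scaling, which shifts all log2 ratios of this comparison by 0.20. A gene was counted as higher or lower where it had at least 20 UMIs over both libraries, a ratio of at least 1.5 and an interval on one side of 1. By that rule 1 of 29 members was higher, where 7.11% of 12317 genes were, and 7 were lower, where 13.8% were. The median log2 ratio of the members was -0.37 against -0.19 over all genes. Under TMM scaling 2 were higher and 2 lower. Mvd was the member that was higher (1.70-fold, 1.22 to 2.40). Among those lower, Scd2, a desaturase close to Scd1, had the widest ratio, 5.16-fold (3.57 to 7.60), followed by Idi1 (1.97-fold, 1.66 to 2.34), Lss (1.69-fold) and Srebf1 (1.64-fold). Stard4, Elovl6 and Sc5d were 1.61-, 1.56- and 1.52-fold lower.

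In labelled null skin, the same comparison gave a keratinocyte sterol sum 2.75 times the untreated level (2.68 to 2.82). Of the 29 members 20 were higher, where 16.6% of 12754 genes were, and 1 was lower, where 29.8% were. The median log2 ratio was 1.13 over the members and -0.19 over all genes. Of the 17 sterol enzymes 15 were higher and none lower, while of the 7 fatty acid enzymes 2 were higher (Scd2 and Acss2) and 1 lower (Scd1). The difference between the control and the labelled null ratios could not be tested with 1 library in each group.

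Sqle had the highest ratio. Its keratinocyte level was 0.119, 0.127, 0.0913 and 0.757 UMIs per 10000, so the treated labelled null library was 8.29-fold (7.03 to 9.85) above the untreated one and stood alone above the other 3. Unthinned, 4.86, 4.88, 4.27 and 42.5% of keratinocytes had an Sqle UMI, and at 1000 UMIs per cell 0.680, 0.837, 0.515 and 6.04% had one, beside 1.39, 0, 0.588 and 0.578% of T or NK cells. In both untreated libraries the thinned keratinocyte share was at or below that of T or NK cells, which themselves held sterol enzyme UMIs. In untreated control and untreated labelled null skin, Sqle was 7.02- and 6.95-fold higher in suprabasal than in basal keratinocytes. Cyp51, at 0.160, 0.192, 0.139 and 0.728, was 5.24-fold (4.57 to 6.04) higher. Mvd was 5.11-fold (4.06 to 6.50), Idi1 4.62-fold (4.12 to 5.20) and Msmo1 4.31-fold (3.88 to 4.79) higher, with the levels given above. In each of these 5 the treated labelled null library lay above the other 3, among which Idi1 and Mvd also differed between treated and untreated control skin.

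Fdps and Hmgcs1 were the most abundant sterol enzymes in keratinocytes by UMIs per 10000 in the first 3 libraries. Fdps held 1.10, 0.912, 0.792 and 2.43 UMIs per 10000, a 3.07-fold (2.89 to 3.26) higher level in treated labelled null skin. Hmgcs1 differed less, at 1.04, 1.04, 0.830 and 1.18, 1.42-fold (1.34 to 1.52), short of the 1.5-fold set for a call. Lss, at 0.0545, 0.0322, 0.0427 and 0.149, was 3.5-fold (2.71 to 4.58) higher. Fdft1, at 0.224, 0.169, 0.167 and 0.478, was 2.86-fold higher, and Nsdhl, at 0.144, 0.123, 0.140 and 0.393, 2.80-fold. Pmvk, at 0.294, 0.363, 0.254 and 0.684, was 2.70-fold higher, and Ebp, at 0.646, 0.801, 0.522 and 1.21, 2.31-fold. Dhcr7 was 2.18-fold, Mvk 2.01-fold, Sc5d 1.72-fold and Tm7sf2 1.52-fold higher. Hsd17b7, at 0.104, 0.0729, 0.107 and 0.139, was 1.30-fold (1.08 to 1.56), short of a call. Of the 17 enzymes, Hmgcs1 and Hsd17b7 were thus the only ones not called over all keratinocytes pooled. Within single clusters of labelled null keratinocytes Hmgcs1 went both ways. It was 0.429 untreated and 0.90 treated in cluster 8, and 0.629 and 0.523 in cluster 15.

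Of the genes of sterol control and supply in labelled null keratinocytes, the thiolase gene Acat2 was 4.09-fold (3.59 to 4.69) higher under imiquimod. The regulators Insig1 and Srebf2 were 2.32-fold (1.76 to 3.09) and 1.78-fold (1.58 to 2.01) higher. Srebf1 was not among them: its level was 0.683 times the untreated one (0.600 to 0.776), in the direction of its lower level in treated control skin. Scd1 was 1.78-fold (1.58 to 2.01) lower. Scd2, at 0.114, 0.0220, 0.0769 and 0.169 UMIs per 10000, was 2.20-fold (1.80 to 2.70) higher in labelled null and 5.16-fold lower in control skin. Pooled over all keratinocytes, Elovl6 (1.08-fold), Acaca (1.14-fold), Fasn (1.31-fold), Stard4 (1.43-fold) and Acly (1.45-fold) did not pass 1.5. The sum of the 7 fatty acid enzymes was 1.17 times the untreated level (1.11 to 1.23), against 0.761 (0.711 to 0.815) in control skin. Suprabasal cells, in which this sum was higher, were 870 of 2716 keratinocytes in untreated and 157 of 1607 in treated labelled null skin. Within labelled null basal cells the sum was 0.945 UMIs per 10000 untreated and 1.45 treated, and within suprabasal cells 1.89 and 2.98. In control skin it was 1.03 and 0.731 in basal cells and 2.0 and 1.58 in suprabasal cells. The part of the cell mixture in the pooled ratios was not tested.

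**Figure D3:**
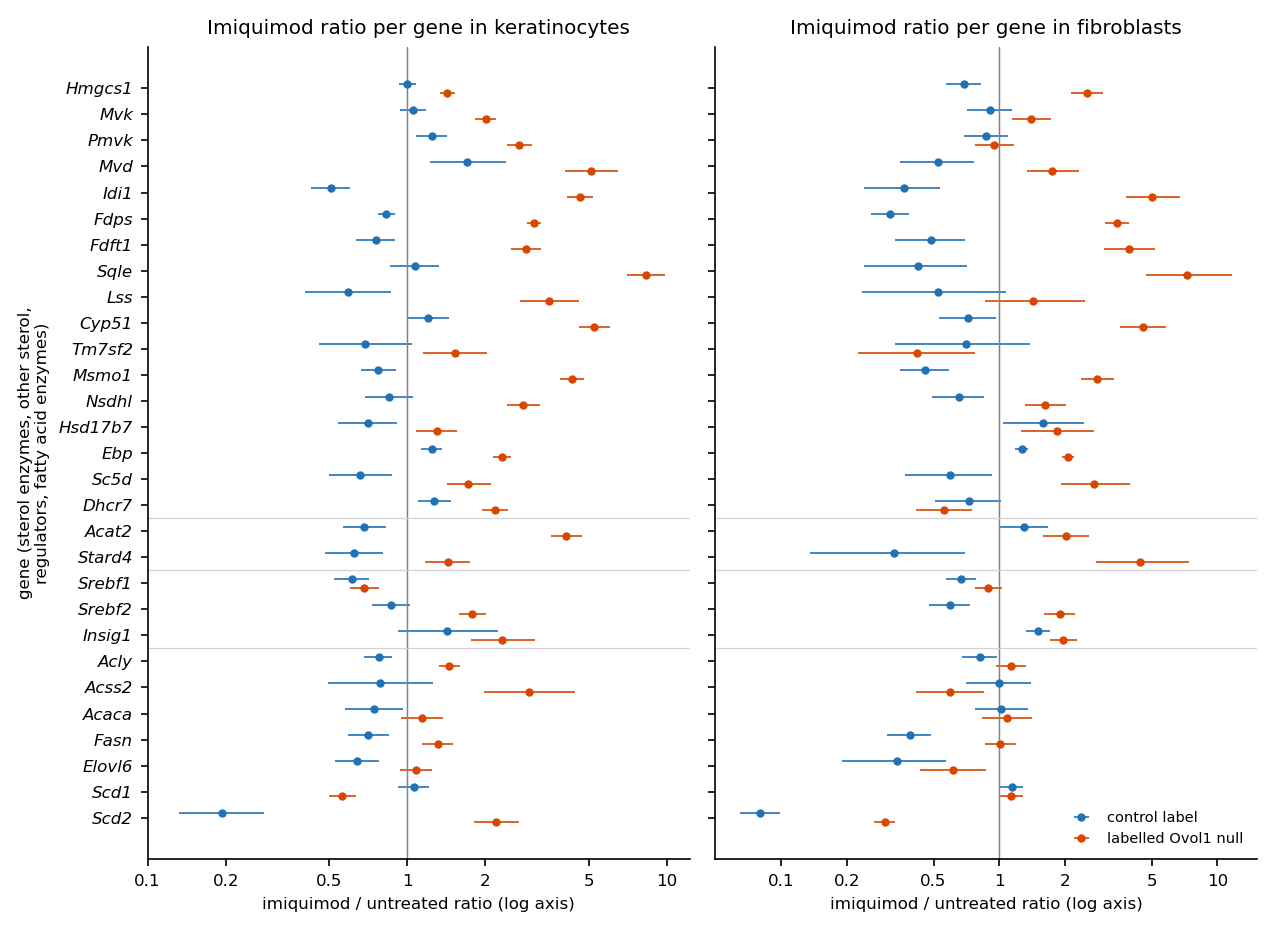
Ratio of imiquimod to untreated (log axis, 1 marked by a line) for each member in keratinocytes and fibroblasts, in control and labelled null skin; points are ratios of UMIs per 10000, genes run down the vertical axis, and bars are exact 95% intervals for counting error. In keratinocytes, Sqle lies highest in labelled null skin at 8.29 and Scd2 lowest in control skin at 0.194. Most labelled null points lie to the right of the control points of the same gene.

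Compared directly, treated labelled null keratinocytes held 2.32 times (2.27 to 2.38) the sterol sum of treated control keratinocytes. Of the members 26 were higher, where 19.5% of 12695 genes were, and Scd1 alone was lower (1.61-fold, 1.43 to 1.82), where 22.0% were. Its reference, treated control keratinocytes, is the library whose thinned Scd1 share could not be told from background above. The median log2 ratio was 1.13 over the members and -0.04 over all genes. Scd2 (7.67-fold, 5.52 to 11), Idi1 (6.73-fold, 5.90 to 7.71), Sqle (5.96-fold), Msmo1 (4.95-fold), Lss (4.63-fold) and Acat2 (4.62-fold) had the widest ratios. Hmgcs1 (1.14-fold) and Srebf1 (1.03-fold) were not called. In untreated skin the 2 genotypes were close: the labelled null sterol sum was 0.818 times the control (0.790 to 0.847), 0 members were higher, where 3.21% of 12279 genes were, and 1, Acss2, was lower (1.68-fold, 1.01 to 2.81), where 2.65% were. These comparisons share libraries with those above, so they are not separate evidence.

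Depth, cell state and cell mixture moved with this pattern. Keratinocytes were spread differently over the clusters by library, although the untreated libraries shared their largest clusters. Clusters 9 and 4 held 445 and 505 of 1912 in untreated control and 652 and 839 of 2716 in untreated labelled null skin. Clusters 18 and 24 held 945 and 656 of 2867 in treated control skin. Clusters 17 and 22 held 1137 and 123 of 1607 in treated labelled null skin. Cluster 17 was led by Stfa3, S100a8, S100a9, Krt6a, Krt6b and Krt16, keratins and alarmins of activated epidermis, and its sterol sum was 11.1 UMIs per 10000. Among other basal clusters, cluster 9 stood at 3.07 and 2.76 in the untreated libraries and cluster 18 at 3.39 in treated control skin. In the first 3 libraries cluster 10 stood at 4.29, 3.83 and 3.47 and the cycling cluster 12 at 6.69, 3.86 and 4.73. The whole basal class, cycling cells included, stood at 3.77, 3.62 and 3.14 there. The suprabasal cluster 22 stood at 25.9, against 7.40 in cluster 24 and 7.32, 6.50 and 5.55 in the first 3 libraries of cluster 4.

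Clusters 8 and 15 held at least 50 cells of every library. Cluster 8, led by Angptl7, Cxcl14 and Lhx2, held 4.28, 3.39, 3.59 and 8.58 UMIs per 10000 of the sterol enzymes, and cluster 15, led by Sostdc1, held 2.72, 2.91, 2.51 and 5.47. In both, the treated labelled null library was above the other 3. Over the 2 clusters together the log2 ratio of treated to untreated labelled null cells was 1.38, with median depths of 4904 and 4588 UMIs, beside 1.46 over all keratinocytes. With only cells of 4000 to 10000 UMIs (427 cells with a median of 6800 against 1813 with a median of 6090) it was 1.37. The same restrictions gave 1.29 and 1.27 against treated control cells, beside 1.22. At 1000 UMIs per cell, 33.4, 32.9, 29.9 and 55.8% of keratinocytes had at least 1 sterol enzyme UMI (unthinned 78.2, 80.2, 78.1 and 98.0%), as had 26.4, 25.7, 28.2 and 36.4% of T or NK cells.

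**Figure D4:**
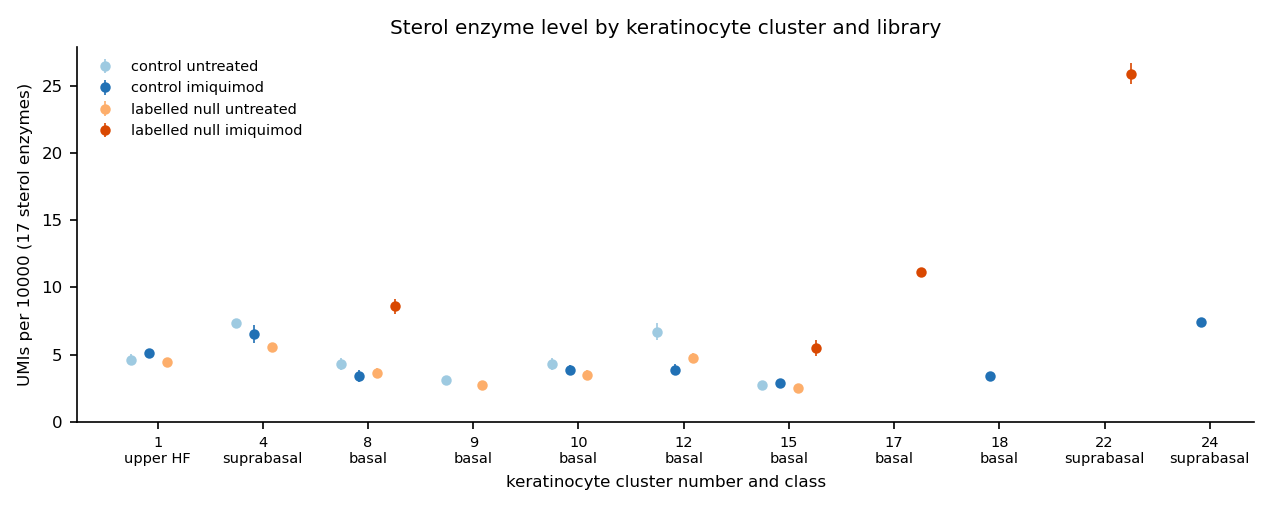
Summed sterol enzyme level (UMIs per 10000) of each keratinocyte cluster with at least 50 cells in a library, by cluster and library, with exact Poisson 95% intervals. Clusters 8 and 15 have a value in all 4 libraries and are highest in treated labelled null skin, and cluster 22 is the highest of all at 25.9.

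Markers of other cells and of proliferation were read beside these values. The 12 sebocyte markers summed to 2.19, 3.06, 2.13 and 3.02 UMIs per 10000 in keratinocytes, beside 38.9 to 50.2 in sebocytes, with Plin5 at 0 in all 4 keratinocyte libraries and Mc5r at 0 in 3. The 7 adipocyte markers summed to 0.0517 to 0.120 in keratinocytes, with Lep at 0 in every library. The part of these cells in the result was not tested. Of 10 genes of G2 and M phase, 10 were lower under imiquimod in control keratinocytes, where 13.8% of all genes were, and 5 were higher and none lower in labelled null keratinocytes, where 16.6% and 29.8% of all genes were. In the cycling cluster 12 the sterol sum was 6.69, 3.86 and 4.73 in the first 3 libraries, where the summed level of the 10 genes was 47.8, 24.9 and 35.2. That level was 4.18 in cluster 17, and 0.132 to 0.245 in suprabasal clusters 4, 22 and 24. The part of cycling cells in the keratinocyte ratio was not tested. All 8 interferon-induced genes were higher under imiquimod in both control and labelled null keratinocytes.

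In fibroblasts the sterol sum under imiquimod was 0.843 times the untreated level in control skin (0.802 to 0.886) and 2.33 times in labelled null skin (2.23 to 2.43). Fibroblasts, the collagen-making cells of the dermis, came from clusters that also differed by library: cluster 27 held 2204 of 2359 in treated control skin and cluster 13 held 2801 of 3147 in treated labelled null skin. Their summed collagen and matrix markers were 1653, 584.7, 1429 and 554.3 UMIs per 10000, lower in both treated libraries, whose sterol sums differed. Median depth was 6743, 4386, 6230 and 8031 UMIs.

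In control fibroblasts 2 of 29 members were higher, where 17.8% of 12595 genes were, and 13 were lower, where 17% were. Their median log2 ratio was -0.58, and 0.01 over all genes. In labelled null fibroblasts 16 members were higher, where 9.42% of 12631 genes were, and 5 were lower, where 28.3% were. The medians were 0.80 and -0.24. TMM scaling shifts the last comparison by 0.24 and raises its sterol log2 ratio from 1.22 to 1.46. Thus in control skin the members lay to the low side of all genes, and in labelled null skin to the high side.

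Sqle held 0.0404, 0.0172, 0.0180 and 0.131 UMIs per 10000 in fibroblasts, 2.35-fold (1.41 to 4.15) lower under imiquimod in control and 7.23-fold (4.70 to 11.7) higher in labelled null skin. Fdps held 0.352, 0.112, 0.234 and 0.808, 3.15-fold (2.59 to 3.86) lower and 3.46-fold (3.06 to 3.93) higher. Idi1 held 0.0812, 0.0295, 0.0459 and 0.230, 2.75-fold (1.87 to 4.17) lower and 5.00-fold (3.80 to 6.70) higher. In these 3 genes treated control was the lowest library and treated labelled null the highest. Msmo1, at 0.153, 0.0696, 0.127 and 0.355, was 2.19-fold lower and 2.80-fold higher, and Fdft1, at 0.0744, 0.0362, 0.0517 and 0.202, was 2.05-fold lower and 3.91-fold higher. Stard4, at 0.0231, 0.00762, 0.0164 and 0.0721, was 3.04-fold (1.43 to 7.41) lower on 8 treated UMIs and 4.40-fold (2.77 to 7.37) higher. Mvd, Nsdhl, Sc5d and Srebf2 also were called in opposite directions, at 1.54- to 1.90-fold lower and 1.62- to 2.71-fold higher. Cyp51, at 0.0821, 0.0591, 0.0623 and 0.283, was 4.54-fold (3.58 to 5.83) higher in labelled null skin and not called in control skin, at 0.719 times.

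Ebp was the most abundant sterol enzyme of fibroblasts, at 0.957, 1.21, 0.935 and 1.94 UMIs per 10000, 2.07-fold (1.94 to 2.21) higher under imiquimod in labelled null skin and 1.27-fold (1.18 to 1.36) in control skin. It was the one sterol enzyme with a level in fibroblasts above that in keratinocytes in all 4 libraries. Hmgcs1, at 0.211, 0.145, 0.138 and 0.348, was 2.53-fold (2.14 to 3.00) higher in labelled null fibroblasts, and so was called there and not in keratinocytes. Hsd17b7 was higher in both, 1.59-fold (1.04 to 2.44) in control and 1.83-fold (1.26 to 2.72) in labelled null skin. Insig1 likewise was 1.51-fold (1.33 to 1.71) and 1.96-fold (1.70 to 2.26) higher, from levels of 0.278 and 0.197. The 2 sterol enzymes lower in labelled null fibroblasts were Tm7sf2 (2.38-fold, 1.29 to 4.42, on 22 treated UMIs) and Dhcr7 (1.79-fold, 1.34 to 2.40). Mvk, Pmvk and Lss were called in neither genotype, at ratios of 0.525 to 1.43, and Acat2 was 2.02-fold higher in labelled null skin.

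The sum of the fatty acid enzymes in fibroblasts was lower under imiquimod in both genotypes. The sum, 2.06, 0.878, 1.57 and 1.12 UMIs per 10000, was 2.34-fold (2.18 to 2.52) lower under imiquimod in control skin and 1.40-fold (1.33 to 1.49) lower in labelled null skin. Scd2 carried most of this. At 1.12, 0.0896, 0.698 and 0.208 it was 12.5-fold (10.2 to 15.5) lower in control and 3.36-fold (3.01 to 3.75) lower in labelled null skin, and both treated libraries lay below both untreated ones. At 1000 UMIs per cell 10.5, 0.848, 7.43 and 2.26% of fibroblasts had an Scd2 UMI (unthinned 44.8, 3.65, 31.9 and 13.3%), beside 0.694, 0, 1.76 and 1.16% of T or NK cells. Scd1, its neighbour in the family, stood at 0.355, 0.405, 0.332 and 0.376, ratios of 1.14 and 1.13. Fasn, at 0.221, 0.0858, 0.181 and 0.183, was 2.57-fold (2.05 to 3.26) lower in control skin and 1.01-fold in labelled null skin. Elovl6 was lower in both (2.94-fold and 1.64-fold), from levels of at most 0.050. Acly and Acaca were called in neither, at ratios of 0.815 to 1.13, and Acss2 was 1.69-fold (1.17 to 2.42) lower in labelled null skin. The 7 adipocyte markers summed to 0.240, 0.179, 0.380 and 0.143 in fibroblasts, with Lep at 0 in all 4. The part of adipocytes in the Scd2 ratio was not tested.

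Against treated control fibroblasts, those of treated labelled null skin held 2.37 times (2.26 to 2.48) the sterol sum. There 17 members were higher, where 9.91% of 12391 genes were, and 1 (Acss2) was lower, where 25.2% were. Stard4 (9.46-fold, 4.70 to 22.2), Idi1 (7.77-fold), Sqle (7.61-fold) and Fdps (7.25-fold) led. In untreated skin the labelled null sum was 0.857 times the control (0.818 to 0.898), 0 members were higher, where 7.41% of 12699 genes were, and 5 (Hmgcs1, Idi1, Fdps, Sqle and Scd2) were lower, by 1.5- to 2.24-fold, where 2.43% were.

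Sebocytes of the labelled null libraries differed little in their sums: the treated to untreated ratio was 1.01 (0.949 to 1.08) for the sterol enzymes and 1.04 (0.977 to 1.10) for the fatty acid enzymes. Of the 27 members with at least 20 UMIs, 3 were called higher, where 14.5% of 6515 genes were, and none lower, where 5.31% were. Those higher were Dhcr7 (2.72-fold, 1.02 to 9.14, on 29 UMIs), Elovl6 (2.23-fold, 1.94 to 2.57) and Ebp (1.83-fold, 1.32 to 2.59). Basal keratin markers in these sebocytes were 39.3 UMIs per 10000 untreated and 81.1 treated, and their part in the Ebp and Dhcr7 ratios was not tested. Among untreated sebocytes, 3 of 25 members were higher, where 3.31% of 5370 genes were, and 1 lower, where 3.74% were. The labelled null library was higher in Hsd17b7 (3.73-fold, 1.93 to 7.77), Msmo1 (1.76-fold, 1.40 to 2.22) and Idi1 (1.51-fold, 1.22 to 1.87) and lower in Srebf1 (1.58-fold, 1.22 to 2.05).

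Macrophages, the tissue phagocytes that take up and export sterol, numbered 242, 89, 112 and 65, so few members could be compared. Their sterol sum was 1.27 times the untreated level in labelled null skin (1.06 to 1.52) and 0.938 times in control skin (0.772 to 1.13). In control skin, of 16 members with at least 20 UMIs, 1 was higher, where 7.96% of 7548 genes were, and 4 lower, where 8.73% were. Pmvk was higher (2.02-fold, 1.22 to 3.28) and Scd2 (4.92-fold, 2.03 to 15.5), Idi1 (4.34-fold, 1.10 to 37.5, on 2 treated UMIs), Srebf1 (3.47-fold, 1.10 to 17.6) and Fdps (2.81-fold, 1.29 to 7.25) were lower. In labelled null skin, of 17 such members, 1 was higher, where 16.1% of 5674 genes were, and 1 lower, where 10.6% were: Ebp was higher (1.63-fold, 1.08 to 2.46) and Scd2 lower (2.71-fold, 1.08 to 8.07). Fibroblast markers summed to 441.7, 109.2, 198.8 and 147.1 UMIs per 10000 in macrophages, lower like Scd2 in both treated libraries, and their part in the Scd2 ratio was not tested.

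Genes of the same pathways outside the 29 were counted from lists chosen with earlier results of these data known. In labelled null keratinocytes under imiquimod, where 16.6% of all genes were higher and 29.8% lower, 4 of 7 other sterol synthesis genes with enough UMIs were higher and none lower, Por (1.81-fold) and Acat1 (1.55-fold) among them. Of 14 genes of sterol sensing, uptake and efflux, 2 were higher, Tmem97 (4.16-fold, 3.57 to 4.85) among them, and 5 were lower, the sterol exporters Abcg1 (7.84-fold, 4.94 to 13.0) and Abca1 (1.92-fold, 1.5 to 2.45), Mylip, a ubiquitin ligase (1.93-fold), Mbtps1 (1.63-fold) and Npc1 (1.54-fold), shares near those over all genes. Of 18 other fatty acid genes 7 were higher, led by Elovl4 (2.42-fold) and Elovl1 (2.23-fold), which make the very long acyl chains of ceramides, and 1, Acsl3, was lower. In control keratinocytes Npc1 was 1.58-fold lower.

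In control fibroblasts under imiquimod, Tmem97 was 3.29-fold (2.73 to 3.98) lower, while Abca1 (1.90-fold), Mylip (1.85-fold) and Abcg1 (1.67-fold) were higher. In labelled null fibroblasts Mylip was 2.59-fold (2.15 to 3.13) lower. Of 14 genes of that list, 6 were higher and 2 lower in control fibroblasts, where 17.8% and 17% of all genes were. In labelled null fibroblasts 2 were higher and 2 lower, where 9.42% and 28.3% of all genes were. Plin2, a coat protein of lipid droplets, was higher in both, 4.22-fold (3.91 to 4.55) and 5.35-fold (4.90 to 5.84).

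Over 34 profiles of a cell class in a library with at least 50 cells, the members differed in how closely they followed the sterol sum. Pearson's r of log2(CPM + 10), where CPM is the UMI count scaled to the same total in every profile, was 0.96 for Cyp51, 0.95 for Fdps, 0.94 for Fdft1, 0.93 for Sqle and 0.92 for Idi1, and 0.46 for Dhcr7, 0.32 for Ebp and 0.22 for Sc5d among the enzymes. It was 0.20 for Insig1, 0.16 for Stard4 and 0.12 for Scd2. The 5 genes outside the members most like the sum, among 5269 compared, were Fabp5 (0.91), a fatty acid carrier, Elovl4 (0.88), Hsd17b12 (0.84), Atp5g1 (0.84) and Rps19bp1 (0.82). The profiles share libraries and depth and the sum contains the enzymes, so these values are descriptions with no p.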

How the data were processed

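The deposited counts of unique molecular identifiers (UMIs) per gene and cell, from 3′ single-cell libraries of 4 skin samples, were used as the authors deposited them. They were made with Cell Ranger 2.1.0 on mm10, per the submitters' processing notes, and the gene annotation and any equalising of depth between libraries are not given in the sources used here. A cell was retained if 200 or more genes were detected and no more than 10% of its UMIs were mitochondrial. Scrublet, run at an expected rate of 0.05, then marked 1.38 to 2.04% of cells a library as doublets, which were removed.

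Cells of all libraries were clustered with scanpy 1.11.5 (2000 variable genes less the 29 members and the further lipid genes, 30 components, 15 neighbours, resolution 1.0). Clusters were named from at least 3 marker genes. The 2-step naming, the grouping into classes and the Scrublet seed were chosen after seeing the data. UMIs were summed by class and library and given per 10000 UMIs of that class. Intervals are exact 95% Poisson, Clopper-Pearson or conditional binomial intervals (scipy 1.17.1). With 1 library a group there was no test between groups. edgeR 4.0.16 was used only for TMM factors.

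The members and lists were chosen with earlier results of these data known. Members at 0.5 UMIs per 10000 or more in a class and library were to be described by name, and Tm7sf2, Sc5d, Stard4 and Acaca, which were not, are named where they depart from the others. Alternatives were a stricter cell filter (500 genes, 5%), doublets kept, TMM scaling, libraries clustered apart, equal weight for each cell, cells with at least 4000 UMIs, a fold of 2, and a minimum of 5 UMIs. The stricter filter kept the class names above, since clustering anew under it left no sebocyte cluster. Some genes of the further lists, though counted in them, are not reported here by name. The ratio and interval code was tested on simulated data.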

Additional observations from a re-analysis of the deposited data

Results flagged for a closer look

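For 14 pairs of gene and class, imiquimod went with a call in opposite directions in control and labelled null skin. The share of all genes called in opposite directions is not given here, so this count is not read as a trait of the members. Each value is the ratio of imiquimod to untreated, first in control and then in labelled null skin, and the difference was not tested, since each ratio rests on 1 library a group. In keratinocytes the ratios were 0.508 and 4.62 for Idi1, 0.591 and 3.5 for Lss, 0.659 and 1.72 for Sc5d, and 0.194 and 2.20 for Scd2.

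In fibroblasts they were 0.525 and 1.75 for Mvd, 0.364 and 5.00 for Idi1, 0.317 and 3.46 for Fdps, and 0.487 and 3.91 for Fdft1. They were 0.425 and 7.23 for Sqle, 0.456 and 2.80 for Msmo1, 0.651 and 1.62 for Nsdhl, and 0.594 and 2.71 for Sc5d. Of the genes of sterol control and supply they were 0.595 and 1.89 for Srebf2 and 0.329 and 4.40 for Stard4. Idi1 and Sc5d were on the list in both classes.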

How the results depend on the processing

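No member ratio in keratinocytes or fibroblasts reversed under the 6 settings in which each was recomputed. Of 232 member ratios per setting 203 under TMM scaling, 220 with cells weighted equally, 229 with doublets kept, 231 with cells of at least 4000 UMIs and all 232 under the stricter filter and separate clustering stayed within their intervals. No paired analysis was possible because the results come from no test. Cells with 4000 to 10000 UMIs and the clusters present in every library were alternatives chosen after seeing the data, and the causes of the shifts were not tested.

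For the log2 ratio of the sterol sum in keratinocytes, imiquimod in control skin gave -0.05, and 0.15 under TMM, -0.19 with 4000 to 10000 UMIs and -0.12 in shared clusters. In labelled null skin it gave 1.46, and 1.42 under the stricter filter, 1.64 under TMM, 1.37 with 4000 to 10000 UMIs, 1.38 in shared clusters, 1.78 in basal and 2.01 in suprabasal cells, groups in which some clusters had leading markers of other keratinocyte types. Labelled null against control gave -0.29 untreated, and -0.23 under TMM and equal weight, -0.20 in shared clusters and -0.43 in suprabasal cells. Treated, it gave 1.22, and 1.18 under the stricter filter, 1.34 with equal weight, 1.15 with at least 4000 UMIs, 1.27 with 4000 to 10000, 1.29 in shared clusters, 1.57 in basal and 1.67 in suprabasal cells. In fibroblasts, imiquimod in labelled null skin gave 1.22, and 1.46 under TMM and 1.16 with 4000 to 10000 UMIs, and treated labelled null against control gave 1.24, and 1.49 and 1.16.

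In keratinocytes under imiquimod in control skin, 1 member was higher, 2 under TMM and 0 with equal weight, with 4000 to 10000 UMIs or at 2-fold, and 7 were lower, 2 under TMM, 12 with 4000 to 10000 UMIs and 1 at 2-fold. In labelled null skin 1 was lower, 2 with equal weight and 0 at 2-fold. Untreated, labelled null against control, 0 were higher, and 1 with 4000 to 10000 UMIs or in shared clusters, and 1 was lower, 0 under TMM, equal weight, 4000 to 10000 UMIs or 2-fold and 3 in shared clusters. Treated, 26 were higher, 14 in shared clusters and 15 at 2-fold, and 1 was lower, 0 with equal weight or at 2-fold. In fibroblasts under imiquimod in control skin 2 were higher, 0 under the stricter filter or at 2-fold, and 1 with doublets kept, TMM, equal weight, at least 4000 or 4000 to 10000 UMIs. In labelled null skin 5 were lower, 3 under TMM or with 4000 to 10000 UMIs and 2 at 2-fold. Untreated, 5 were lower in labelled null skin, 3 under the stricter filter or with doublets kept and 1 at 2-fold. Treated, 1 was lower, 0 under TMM or at 2-fold. The 22 sebocytes of treated control skin entered no comparison between libraries, members with under 20 UMIs over both libraries were not called, and sebocyte and macrophage ratios were not recomputed under the alternatives.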

Other observations

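Of 18 other fatty acid genes in sebocytes, 3 were higher and 2 lower in the treated than in the untreated labelled null library, where 14.5% and 5.31% of all genes were. The genes named here were chosen after their values were seen. Elovl4, an elongase of very long acyl chains, held 6.43, 10.2, 2.86 and 15.4 UMIs per 10000 in sebocytes and was 5.36-fold (4.63 to 6.24) higher in the treated labelled null library than in the untreated one. Scd3, a desaturase of the family of Scd1, held 1.72, 1.28, 0.983 and 0.115 and was 8.56-fold lower there. Scd1 itself was 0.795 times the untreated level.

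In classes outside the 4 described, the sterol sum was 3.66, 3.80, 3.22 and 4.52 UMIs per 10000 in T or NK cells and 3.03, 2.08, 2.73 and 3.22 in mural cells, the contractile cells of vessel walls. The 91 Langerhans cells of treated labelled null skin, the antigen-presenting cells of the epidermis, held 10.5.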
